A study of Mus musculus with 14 samples.

Results

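The genes described here are a list of 9 chemokine receptors of tissue homing and inflammation, taken by name: Ccr2, Ccr4, Ccr6, Ccr8, Ccr9, Cxcr3, Cxcr4, Cxcr5 and Cxcr6. They are 9 of the 30284 genes in the tables, and all 9 had enough reads to be tested. Messenger RNA came from regulatory T cells sorted from mouse spleen as Foxp3+YFP+ cells, and each library was made from 1 or 2 animals of the C57/B6 strain. The control mice had the genotype Tln1wt/wt Foxp3cre/wt, and the mice labelled as talin knockout had Tln1fl/fl Foxp3cre/wt, so both groups carried the Cre allele. Tln1 encodes talin-1, the adaptor that binds integrin tails and switches integrins to their active form. The series asks what integrin activation does for regulatory T cells, and the comparison below sets the talin genotype against the control genotype. In these mice Cre is driven by Foxp3, which lies on the X chromosome, so heterozygous females also hold regulatory T cells that do not use the Cre allele. That holds for the mice, whereas the libraries came from cells sorted as YFP+. Whether any cells without Cre use entered the libraries was not tested. The labels used here give no age.

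The 14 samples formed 4 control units and 3 knockout-labelled units of 2 samples each. Estimated reads in genes were 12851338, 20863055, 39214146 and 13458535 in the control units. They were 44524667, 38811379 and 56109080 in the knockout-labelled units. The control units other than unit 3 were thus shallower than every knockout-labelled unit, and read totals given below are not scaled for depth. Values below are in the order of units 1 to 4 for the controls and 1 to 3 for the knockout-labelled group. Errors are the SD between units for levels and the standard error (SE) for log2 fold changes, with n = 4 and n = 3. CPM, which are counts scaled to the library size, compare a gene between units, and TPM, which are scaled for transcript length too, compare genes with each other. Tln1 itself was not lower: it was at 634, 543, 847 and 648.5 CPM among the controls and at 788, 901 and 1014 CPM in the knockout-labelled units (edgeR adjusted p = 0.126). A short Tln1 transcript, Tln1-204, was lower in every knockout-labelled unit (6.6, 4.92 and 1.81 TPM) than in any control (185, 9.86, 189.5 and 163 TPM, the second of them near the knockout-labelled values). The summed Tln1 signal did not follow the labels and this transcript did, so the units are called knockout-labelled throughout. Of 15775 genes tested, 1116 passed with a higher level and 1028 with a lower level in the knockout-labelled units at a false discovery rate of 0.05, and the median log2 fold change was 0.06. The sorted cells carried their defining genes in every unit: Foxp3 lay between 324 and 514.5 CPM and Cd4 between 507.5 and 686.5 CPM. The summed CPM of 10 T and regulatory T cell genes was 4740 to 5435 in the controls and 3725, 3980 and 2869 in the knockout-labelled units, and 3 of them (Il2ra, Ikzf2 and Cd3g) fell.

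Chemokine receptors are membrane proteins that couple to inhibitory G proteins and steer cells along gradients of small secreted chemokines. Naive-like regulatory T cells of the spleen and lymph nodes rely on CCR7, whereas activated and tissue-bound cells take up other receptors. CCR4 and CCR8 are linked to skin and inflamed tissue, CCR9 and CCR6 to the gut mucosa, and CXCR5 to the B cell follicle. CXCR3 and CXCR6 mark cells drawn to type 1 inflammation and to the liver, CCR2 follows inflammatory monocyte chemokines, and CXCR4 holds cells in the bone marrow.

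Of the 9 receptor genes, Cxcr6 rose and Ccr4 and Cxcr5 fell in the knockout-labelled units. These 3 calls are set against 13.6% of all tested genes called in either direction, 7.07% called higher and 6.52% called lower. The values of 5 receptors (Ccr4, Ccr8, Cxcr3, Cxcr5 and Cxcr6) did not overlap between the groups, as was the case for 30.8% of all tested genes. The fold change was negative for 7 of the 9 and positive for Cxcr4 and Cxcr6, and the median over the 9 was -0.29. The summed CPM of the 9 receptors stayed between 263.7 and 324.5 in all 7 units, so the groups overlapped in the total while single receptors moved in opposite directions. The summed TPM varied more, at 131, 98.4, 145.5 and 134 in the controls and 135, 174 and 149.6 in the knockout-labelled units. Those sums overlapped between the groups too.

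**Figure D1:**
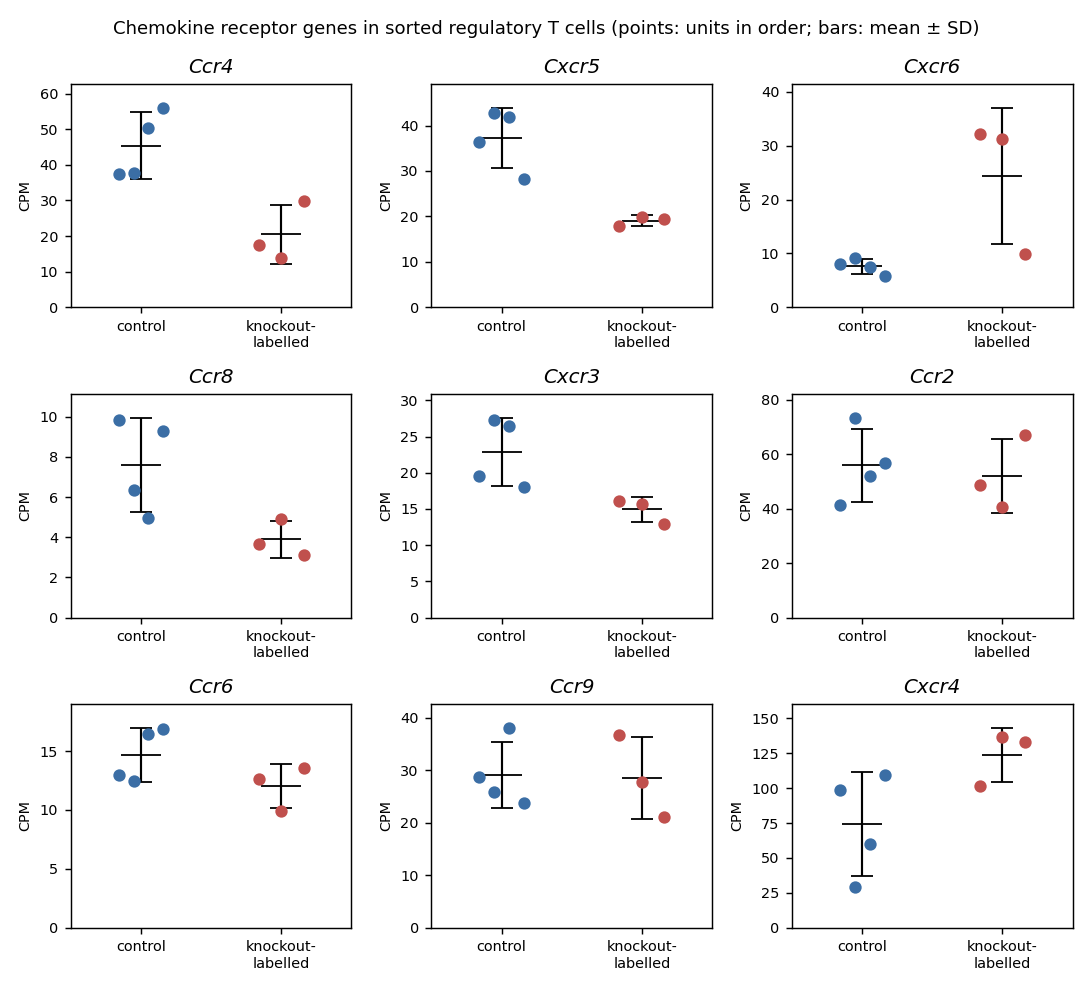
Each panel shows 1 receptor gene, with CPM on the y axis from 0, a point for each of the 4 control and 3 knockout-labelled units in order, and bars for the mean ± SD. Ccr4, Cxcr5, Ccr8 and Cxcr3 lie lower and Cxcr6 higher in every knockout-labelled unit, whereas Ccr2, Ccr6, Ccr9 and Cxcr4 overlap.

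Ccr4, the receptor for CCL17 and CCL22, was the receptor with the largest fall. Its level was 37.4, 37.8, 50.4 and 56.1 CPM among the controls and 17.6, 13.9 and 29.8 CPM in the knockout-labelled units. Every knockout-labelled unit lay below every control unit, and knockout-labelled unit 3 was nearest to the controls. The means were 45.4 ± 9.33 and 20.5 ± 8.33 CPM, a 2.22-fold fall. The log2 fold change was -1.15 ± 0.27 (95% interval -1.76 to -0.54; edgeR adjusted p = 0.0276). The call rested on few units: adjusted p was 0.0522 without control unit 3, 0.0712 without control unit 4, 0.0805 without knockout-labelled unit 1 and 0.0615 without knockout-labelled unit 2, with log2 fold changes of -1.10, -1.04, -1.06 and -0.94. With an offset for GC content and length the log2 fold change was -0.998 (edgeR adjusted p = 0.0721).

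Ccr4 (ENSMUSG00000047898) lies on chromosome 9, 114490316 to 114504916, on the minus strand of GRCm38, and 1 transcript of it is in the tables. The 250 bases before its RefSeq start are shown because Ccr4 was called lower; the window lies inside the longer gene span of the annotation, and its capitals mark the only one of 8 searched motifs that it holds, a KLF box (CACCC, here on the other strand) at -81 to -77. That box occurs in 52% of 32851 RefSeq promoters of the same length.
Ccr4, chr9:114496545-114496794, minus strand: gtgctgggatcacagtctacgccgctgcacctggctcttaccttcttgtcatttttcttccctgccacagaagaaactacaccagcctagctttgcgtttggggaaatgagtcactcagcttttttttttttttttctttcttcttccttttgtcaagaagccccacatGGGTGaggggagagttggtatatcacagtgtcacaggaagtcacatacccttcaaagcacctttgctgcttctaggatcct

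Ccr8, the receptor for CCL1 and CCL8 and a gene typical of activated tissue regulatory T cells, had the fewest reads of the 9 over all 7 units. It was at 9.83, 6.35, 4.95 and 9.30 CPM among the controls and at 3.65, 4.92 and 3.13 CPM in the knockout-labelled units. The groups were apart by a small margin, between control unit 3 and knockout-labelled unit 2. The log2 fold change of -0.96 ± 0.34 (95% interval -1.70 to -0.22) missed the threshold (edgeR adjusted p = 0.0794), and the DESeq2 Wald test called it (adjusted p = 0.0281). Ccr8 (ENSMUSG00000042262; chromosome 9, 120092114 to 120094906, plus strand) was covered by 122 to 198 reads per unit.

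Cxcr5 is the receptor for CXCL13 that brings T cells into B cell follicles. It was at 36.4, 42.7, 41.8 and 28.2 CPM among the controls and at 17.8, 19.9 and 19.5 CPM in the knockout-labelled units. All 3 knockout-labelled units lay below the lowest control unit and close to each other. The means were 37.3 ± 6.68 and 19.1 ± 1.13 CPM, a 1.95-fold fall, with a log2 fold change of -0.97 ± 0.17 (95% interval -1.35 to -0.58; edgeR adjusted p = 0.00886). Cxcr5 passed the test in all 7 fits that left out 1 unit, with adjusted p between 0.00928 and 0.0273. B cells also express Cxcr5, and the fall stood beside a rise of their genes: 9 of 12 B cell markers rose and their summed CPM was 38.6 to 114 in the controls and 465.7, 372 and 208 in the knockout-labelled units. Their part in the Cxcr5 value was not tested.

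Cxcr5 (ENSMUSG00000047880) spans 44511787 to 44561877 on the minus strand of chromosome 9 and overlaps Bcl9l on the plus strand. Most of its signal was on the transcript of 2 exons, Cxcr5-201, at 11.7 ± 2.89 TPM in the controls and 6.4 ± 0.93 TPM in the knockout-labelled units. A longer transcript of 3 exons, Cxcr5-202, was at 0.958, 0.755, 2.14 and 1.79 TPM in the controls and at 0.247, 0 and 0.131 TPM in the knockout-labelled units. It was low in both groups, the groups did not overlap, and its mean was under the level needed for a test. Its share of the Cxcr5 TPM was 11.2% ± 6.14 in the controls and 2.1% ± 2.1 in the knockout-labelled units.

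Cxcr3 is the receptor for the interferon-induced chemokines CXCL9, CXCL10 and CXCL11. It was at 19.6, 27.3, 26.5 and 18.0 CPM among the controls and at 16.1, 15.7 and 12.9 CPM in the knockout-labelled units. The groups did not overlap, with control unit 4 and knockout-labelled unit 1 nearest to each other. The log2 fold change of -0.62 ± 0.21 (95% interval -1.08 to -0.15) missed the threshold (edgeR adjusted p = 0.0717). It passed with the DESeq2 Wald test (0.0272), with limma-voom (0.0407) and with the offset for GC content and length (edgeR, 0.0379), the same direction each time. Cxcr3 (ENSMUSG00000050232) lies on the X chromosome, 101731535 to 101734269, minus strand.

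Cxcr6, the receptor for the membrane-bound chemokine CXCL16, was the receptor that rose. It was at 8.02, 9.13, 7.54 and 5.79 CPM among the controls and at 32.2, 31.2 and 9.79 CPM in the knockout-labelled units. Knockout-labelled units 1 and 2 were far above all controls, and knockout-labelled unit 3 was only just above control unit 2. The control values rested on 102, 187, 302 and 76 reads. The means were 7.62 ± 1.39 and 24.4 ± 12.7 CPM, a 3.2-fold rise, with a log2 fold change of 1.68 ± 0.38 (95% interval 0.83 to 2.52; edgeR adjusted p = 0.0229). The call was lost when control unit 2 (edgeR adjusted p = 0.0558), control unit 3 (0.0504), control unit 4 (0.0716) or knockout-labelled unit 2 (0.0654) was left out, with log2 fold changes of 1.77, 1.67, 1.57 and 1.46. It was also not made by limma-voom (adjusted p = 0.149).

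Cytotoxic lymphocytes also express Cxcr6, and the summed markers of CD8 T cells and natural killer (NK) cells were higher in every knockout-labelled unit than in any control. Of 10 such markers 5 rose in edgeR and 3 in limma-voom, and none of the 10 was at 0 in all controls. Their summed CPM was 38.8 to 49.3 in the controls and 122, 88.9 and 63.8 in the knockout-labelled units, so knockout-labelled unit 3 was the lowest of its group for both the list and Cxcr6. The B cell and immature thymocyte lists were also lowest of that group in knockout-labelled unit 3. The thymocyte list shares Cd8b1 with the CD8 and NK list, at 20.05, 15.9 and 9.21 CPM in the knockout-labelled units. Of its other genes, Ptcra and Arpp21 were lowest of that group in knockout-labelled unit 3, and Dntt, Rag1 and Rag2 were highest in knockout-labelled unit 3. The monocyte and macrophage, neutrophil and erythroid lists were highest there. Of the CD8 and NK list, Nkg7, a cytotoxic granule protein, rose from 6.85 to 21.6 CPM, and Prf1, which encodes perforin, rose from 3.60 to 9.04 CPM (edgeR adjusted p = 0.00366 and 0.039). Nkg7 was highest in knockout-labelled unit 3, at 25.7 CPM, where Cxcr6 was lowest of that group. Cd8b1, a CD8 chain, was at 13.4 and 15.1 CPM (edgeR adjusted p = 0.732). Gzmb and Eomes of the list were not called either (edgeR adjusted p = 0.925 and 0.87). In bulk libraries more cells of a type and more RNA per cell cannot be told apart, and the part of these cells in the Cxcr6 value was not tested.

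Cxcr6 (ENSMUSG00000048521) lies on chromosome 9, 123806475 to 123811760, plus strand, inside the span of Fyco1 on the minus strand. The kit did not keep the strand. Of the 1867 stretches of 31 bases in Cxcr6, 0 occur on either strand in transcripts of other genes, so the annotated transcripts of Cxcr6 and Fyco1 share none. Only reads of Fyco1 RNA outside its annotated transcripts could not be told apart from Cxcr6. Fyco1, a gene of vesicle transport, showed a log2 fold change of -0.01 (adjusted p = 0.982 in edgeR). The 250 bases before the RefSeq start of Cxcr6 are shown because Cxcr6 was called higher. They hold none of the 8 motifs searched on both strands, so no base is in capitals.
Cxcr6, chr9:123806227-123806476, plus strand: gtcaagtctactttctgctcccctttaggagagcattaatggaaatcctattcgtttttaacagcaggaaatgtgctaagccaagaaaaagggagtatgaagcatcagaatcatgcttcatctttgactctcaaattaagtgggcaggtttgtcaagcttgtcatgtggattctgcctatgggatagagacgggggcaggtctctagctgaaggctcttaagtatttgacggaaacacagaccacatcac
The motifs, each with the share of the 32851 promoters that hold it, were a T-box motif (GGTGTG, 16.3%), the KLF box (CACCC, 52%), a STAT site (TTCNNNGAA, 7.02%), a Maf motif (TGCTGA, 16.1%), a hypoxia response core (ACGTG, 16.6%), a GATA site (AGATAA, 9.99%), an NF-kB site (17.6%) and a GC box (GGGCGG, 32.7%). The search covered 9 promoters of 8 receptor genes. No motif was held by more than 4 of the 9, and the Cxcr4 promoter held 3 GC boxes.

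Ccr6, the receptor for CCL20, and Ccr9, the receptor for CCL25, are the gut-linked members, and neither passed the test. Ccr6 was at 13.0, 12.5, 16.4 and 16.8 CPM among the controls and at 12.6, 9.93 and 13.6 CPM in the knockout-labelled units. Its groups overlapped, with a log2 fold change of -0.29 ± 0.22 (95% interval -0.76 to 0.19; edgeR adjusted p = 0.392). Ccr9 was at 28.7, 25.8, 38.0 and 23.9 CPM among the controls and at 36.6, 27.8 and 21.2 CPM in the knockout-labelled units. Its log2 fold change was -0.03 ± 0.22 (95% interval -0.52 to 0.46; edgeR adjusted p = 0.941). Ccr6 (ENSMUSG00000040899) lies on chromosome 17, 8236043 to 8257141, plus strand, and Ccr9 (ENSMUSG00000029530) on chromosome 9, 123678439 to 123784330, plus strand. B cells also express Ccr6, and the B cell markers given beside Cxcr5 were higher in the knockout-labelled units. Their part in the Ccr6 value was not tested.

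Ccr2, the receptor for CCL2 and other monocyte chemokines, was at 41.4, 73.3, 51.8 and 56.8 CPM among the controls and at 48.6, 40.6 and 67.1 CPM in the knockout-labelled units. The groups overlapped, and control unit 2 and knockout-labelled unit 3 were the highest of their groups. The log2 fold change was -0.10 ± 0.22 (95% interval -0.59 to 0.39; edgeR adjusted p = 0.784), and the offset for GC content and length turned it to 0.55 (adjusted p = 0.332). Monocytes express Ccr2 strongly, and the summed CPM of 10 monocyte and macrophage markers was 22.7 to 175 in the controls and 642, 289.5 and 773 in the knockout-labelled units. Of those markers 3 rose, and their part in the Ccr2 value was not tested. Ccr2 (ENSMUSG00000049103; chromosome 9, 124101950 to 124113557, plus strand) shares 3.44% of its 31-base words with other genes, so its counts are slightly less certain than those of the other receptors.

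Cxcr4, the receptor for CXCL12, had the highest TPM of the 9 and, relative to its mean, the widest spread among the controls. It was at 98.9, 28.9, 60.2 and 109.6 CPM among the controls and at 102, 137 and 133 CPM in the knockout-labelled units. The groups overlapped because control unit 4 was above knockout-labelled unit 1, and control unit 2 was far below all others. The log2 fold change was 0.74 ± 0.44 (95% interval -0.34 to 1.81; edgeR adjusted p = 0.304). It was 0.47 without control unit 2 and 0.38 (chosen after seeing the data) without control unit 2 and knockout-labelled unit 3. B cells and myeloid cells express Cxcr4 too, and the part of their RNA was not tested. Cxcr4 (ENSMUSG00000045382) lies on chromosome 1, 128588199 to 128592293, minus strand.

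The Cxcr4 transcripts took different shares of the signal in the groups, though neither passed the test. The tables hold a long transcript of 1805 bases, Cxcr4-201, and a short one of 902 bases, Cxcr4-202, whose first exons end at different places. The start of each coding sequence across the junction of exons 1 and 2 is printed because it is the main difference by which the short transcript can be recognised. Capitals mark 6 bases, or 2 residues, of exon 1 that are in the long transcript and not in the short one.
Cxcr4-201, minus strand of chromosome 1: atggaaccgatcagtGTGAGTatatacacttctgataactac
Cxcr4-202, minus strand of chromosome 1: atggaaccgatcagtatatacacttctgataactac
Exon 1 ends at 128592189 in Cxcr4-201 and at 128592195 in Cxcr4-202, and exon 2 begins at 128589901 in both. Beyond the junction the short transcript is contained in the long one, which runs on to 128588199. Of the 872 words of 31 bases in Cxcr4-202, 30 are not in Cxcr4-201, so kallisto's split of the reads rests on few reads at that junction and on where the other reads fall.

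Cxcr4-202 held 5.53%, 11%, 36.6% and 0% of the Cxcr4 TPM in the controls and 44.0%, 48.6% and 50.9% in the knockout-labelled units. The knockout-labelled units were alike and all above the controls, among which unit 3 stood nearest to them. Control unit 3 also had the most reads of the controls, 39214146 in genes against 12851338 to 20863055 in the others. The knockout-labelled units had 38811379 to 56109080, and the part of read depth in these shares was not tested. The level of Cxcr4-202 was 5.26 ± 7.48 TPM in the controls and 42.2 ± 11.3 TPM in the knockout-labelled units, a difference of 3.51 ± 0.83 (SE) on the log2(TPM + 1) scale that did not pass the limma test over 33274 transcripts (adjusted p = 0.0713). Cxcr4-201 was at 37.4 ± 19.9 TPM and 45.3 ± 8.24 TPM in the same order (limma adjusted p = 0.628). Without control unit 3, 1 receptor transcript passed. Over the 23 transcripts of the 9 receptors, 16 could be tested and 0 passed in limma, against 2.22% of all transcripts. At an unadjusted p of 0.05, 2 were higher (Cxcr4-202 and Cxcr6-201) and 4 were lower (Ccr4-201, Ccr8-201, Cxcr3-201 and Cxcr5-201).

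**Figure D2:**
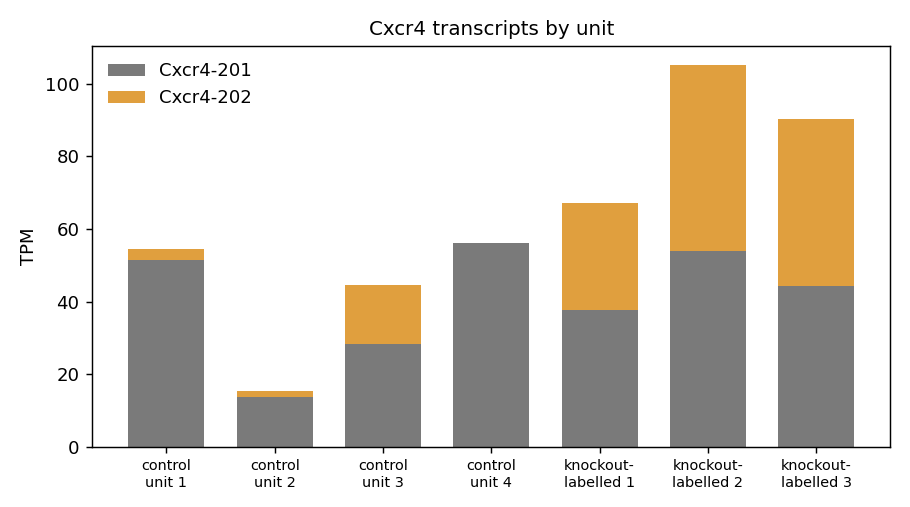
Stacked bars of the 2 Cxcr4 transcripts in each unit, with TPM on the y axis and the 7 units on the x axis. Cxcr4-202 is at 51.1 TPM in knockout-labelled unit 2 and at 0 in control unit 4, while Cxcr4-201 overlaps between the groups.

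On the length-scaled TPM scale Cxcr4 led in both groups, and the order below it differed. In the control units the mean levels ran from Cxcr4 (42.6 ± 18.9 TPM) through Ccr4 (15.1 ± 3.5), Ccr2 (14.8 ± 2.93), Cxcr5 (13.2 ± 2.84), Cxcr3 (12.8 ± 3.06), Ccr6 (9.20 ± 2.09), Ccr9 (8.99 ± 2.73) and Ccr8 (6.74 ± 1.94) to Cxcr6 (3.85 ± 0.711). All neighbours in that order overlapped between units except Ccr8 and Cxcr6. In the knockout-labelled units Cxcr4 (87.6 ± 19.1 TPM) was followed by Ccr2 (13.5 ± 2.72), Cxcr6 (12.1 ± 6.60), Ccr9 (8.11 ± 2.22), Cxcr3 (8.07 ± 1.38), Ccr6 (7.44 ± 0.468), Cxcr5 (6.53 ± 0.809), Ccr4 (6.41 ± 2.23) and Ccr8 (3.40 ± 1.08). There the neighbours overlapped except Cxcr4 with Ccr2 and Ccr4 with Ccr8. Ccr4 thus moved from rank 2 to rank 8 and Cxcr6 from rank 9 to rank 3, though most of the ranks between are not separated by the spread. Cxcr4 made up 33.5% of the summed TPM of the 9 receptors in the control means and 57.2% in the knockout-labelled means. The short Cxcr4-202 transcript enters that share: the Cxcr4 groups overlapped in CPM but not in TPM (15.4 to 56.0 against 67.2 to 105), and with an offset for effective length the log2 fold change was 1.09 (edgeR adjusted p = 0.128). The part of read depth in these Cxcr4 values was not tested.

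**Figure D3:**
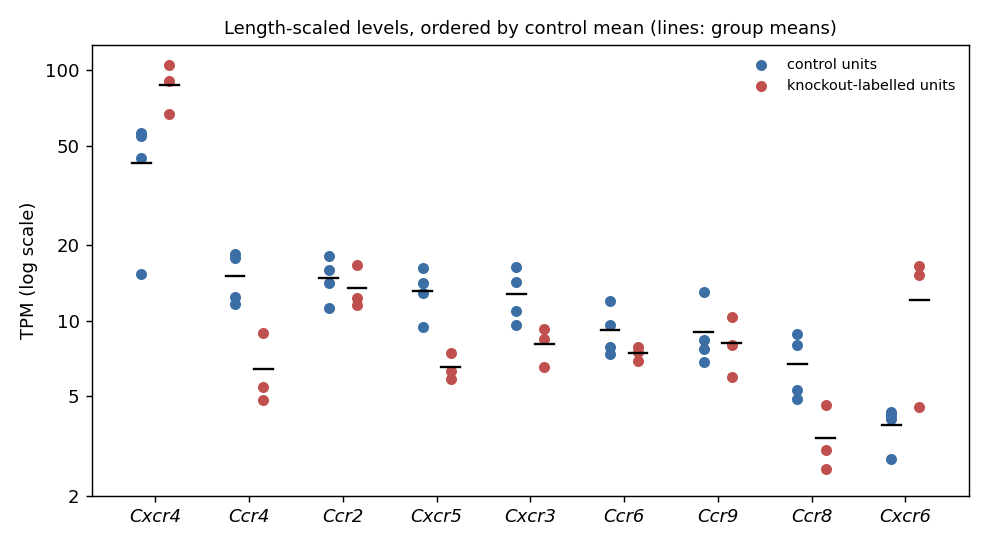
TPM of the 9 receptors on a log scale, ordered by their mean in the controls, with 1 point per unit and a line at each group mean. Cxcr4 stands above the rest in the knockout-labelled units, at 67.2 to 105 TPM, and Cxcr6 is the lowest receptor in the controls.

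Among 14 other chemokine receptors of the tables, 12 were tested and all 12 had a positive log2 fold change, with a median of 1.72, against 2 of 9 and a median of -0.29 for the receptors described above. Over all genes tested, 8546 of 15775 were positive. At least Ccr1, Ackr2 and Ackr3 had few control reads and passed the filter on low counts only through the knockout-labelled units. Their positive sign was thus close to fixed by the filter, and they enter the count and the median. Of the 12, 3 rose and 0 fell in edgeR, with 7 higher and 0 lower at an unadjusted p of 0.05, 6 and 0 by DESeq2 and 4 and 0 by limma-voom. Ccr1, an inflammatory receptor of myeloid cells, had 22 reads over the 4 controls and 534 over the knockout-labelled units, from 0.293 ± 0.163 to 3.82 ± 0.471 CPM (edgeR adjusted p = 0.00278). Ccrl2, a receptor that binds chemerin without signalling, rose from 4.81 ± 1.27 to 11.6 ± 2.51 CPM (log2 fold change 1.28 ± 0.28; edgeR adjusted p = 0.0192). Ackr3, a scavenger of CXCL12, rested on 11 and 179 reads (edgeR adjusted p = 0.0223). Ccr7, the receptor that guides T cells into lymph nodes, was at 142, 242, 238 and 199 CPM among the controls and 252, 289 and 216 CPM in the knockout-labelled units (log2 fold change 0.30 ± 0.19; edgeR adjusted p = 0.306).

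**Figure D4:**
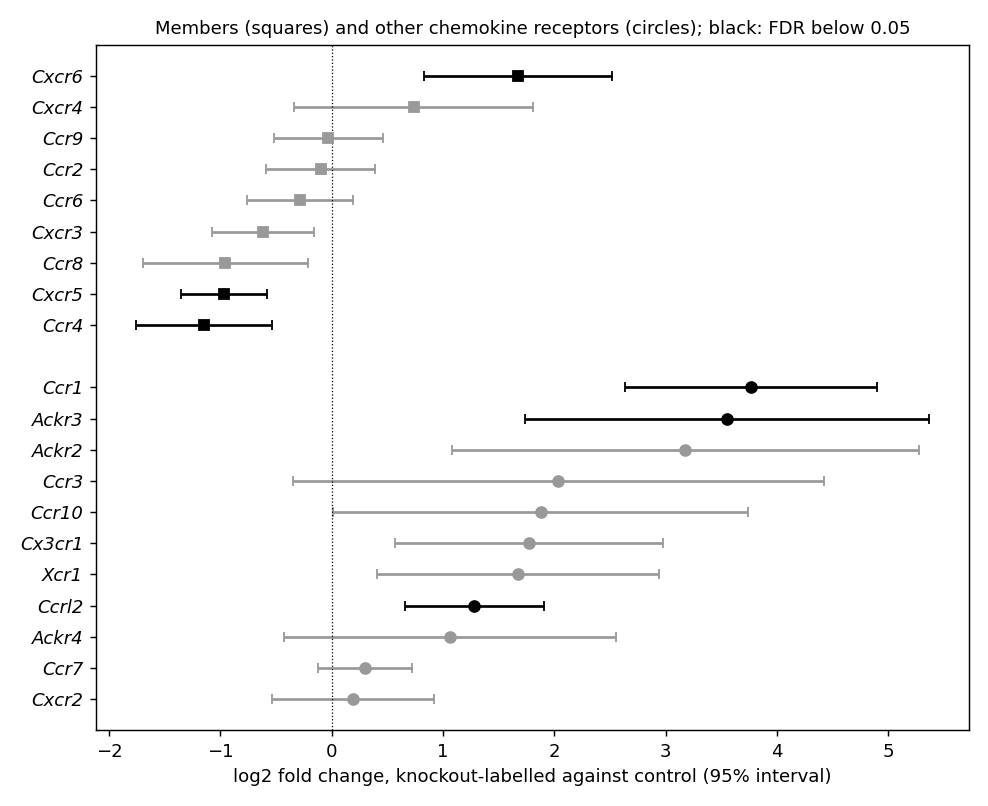
Log2 fold change of knockout-labelled against control units for the 9 receptors (squares) and 11 of the 12 other tested chemokine receptors (circles), with 95% intervals and calls at a false discovery rate of 0.05 in black. The squares run from -1.15 for Ccr4 to 1.68 for Cxcr6, and all circles lie above 0.

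On chromosome 9 lie 6 of the 9 receptor genes, and Ccr9, Cxcr6 and Ccr2 stand near each other and near Xcr1, Ccr1 and Ccr3. Of these 6 genes Cxcr6 and Ccr1 rose and the other 4 did not pass the test. Xcr1, the receptor of cross-presenting dendritic cells, showed a log2 fold change of 1.67 (adjusted p = 0.0739 in edgeR), and Ccr3, the eosinophil receptor, 2.04 (0.208). Lztfl1, which overlaps the span of Ccr9 on the other strand, fell by 1.03 on the log2 scale (adjusted p = 0.00182 in edgeR) and was chosen for mention after its value was seen.

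The ligands of the 9 receptors had few reads in these cells. Of 15 ligand genes 6 were tested, and Ccl2, Ccl7, Ccl8, Ccl12 and Cxcl12 had no read in any control unit. Ccl22, a CCR4 ligand made by dendritic cells and macrophages, was the only one called, on 1 read in the controls and 69 in the knockout-labelled units (edgeR adjusted p = 0.0223). Cxcl16, the ligand of CXCR6, was at 0.959 and 1.25 CPM (edgeR adjusted p = 0.652), and Ccl25, the ligand of CCR9, was at 6.10 and 3.39 CPM (0.109).

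Of 23 genes for the G proteins and effectors behind the receptors, 2 rose and 3 fell, with a median log2 fold change of 0.13. Tiam1, an exchange factor that activates Rac, fell from 203 ± 22.6 to 86.4 ± 12.4 CPM (log2 fold change -1.23 ± 0.15; edgeR adjusted p = 0.00139). Gng2, a G protein gamma subunit, fell from 79.8 ± 10.03 to 37.4 ± 4.74 CPM (-1.09 ± 0.15; edgeR adjusted p = 0.00258). Pik3r5, the regulatory subunit that links PI3K gamma to G proteins, rose from 138 ± 14.6 to 241.5 ± 31.2 CPM (0.81 ± 0.14; edgeR adjusted p = 0.00713). Its relative Pik3r6 had 4 reads in the controls and 338 in the knockout-labelled units (edgeR adjusted p = 0.00582). The other call was Gnaq, an alpha subunit, at 47.3 and 26.4 CPM (edgeR adjusted p = 0.0306), named because it completes the count.

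Of 19 genes that end receptor signals or remove receptors from the surface, 2 rose and 1 fell. Rgs18, a regulator of G protein signalling known from platelets and myeloid cells, rested on 25 and 598 reads (edgeR adjusted p = 0.00623). Rgs3, of the same family, rose from 109 ± 7.76 to 163 ± 29.0 CPM (log2 fold change 0.58 ± 0.14; edgeR adjusted p = 0.0276). Rgs10 fell from 156 ± 17.3 to 97.8 ± 15.1 CPM (-0.67 ± 0.15; edgeR adjusted p = 0.0189).

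Of 18 transcription factors known to control receptor or homing genes, 1 rose and 3 fell. Klf2, which sustains S1pr1 in resting T cells, was at 224, 209.5, 210.2 and 326 CPM among the controls and 437, 660.2 and 446.5 CPM in the knockout-labelled units (log2 fold change 1.09 ± 0.21; edgeR adjusted p = 0.011). All 3 knockout-labelled units were above the controls. Hif1a, the oxygen-sensing factor that can raise Cxcr4, fell from 290.3 ± 32.7 to 142 ± 20.02 CPM (-1.03 ± 0.15; edgeR adjusted p = 0.00378). Stat4, which relays interleukin-12, fell from 166 ± 13.1 to 92.4 ± 14.1 CPM (-0.85 ± 0.14; edgeR adjusted p = 0.00619). Maf, a factor of follicular and effector regulatory T cells, fell from 189 ± 41.0 to 69.4 ± 20.8 CPM (-1.44 ± 0.23; edgeR adjusted p = 0.00629). Of 11 tested homing and egress genes, among them S1pr1 and Selplg, 0 passed in edgeR, with 1 higher and 1 lower at an unadjusted p of 0.05, while DESeq2 called 1 lower and limma-voom 0.

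The summed markers of each of 7 lists of other cell types were higher in all 3 knockout-labelled units than in any control, and no list held a marker that was at 0 in all controls. Beside the lists given above, 9 of 10 neutrophil markers, led by Mpo, Elane and Prtn3, rose. Their summed CPM was 3.03 to 21.3 in the controls and 495, 289.1 and 1663 in the knockout-labelled units. Of 9 dendritic cell markers 6 rose, with sums of 22.9 to 44.3 and then 135, 91.9 and 114 CPM. The erythroid list, led by Hbb-bs, Hba-a2 and Slc4a1, reached 287, 103 and 3927 CPM against 8.12 to 62.9 CPM, and 0 of its 10 genes passed in edgeR (9 higher at an unadjusted p of 0.05, 4 called by DESeq2 and 0 by limma-voom). Immature thymocyte markers, led by Cd8b1, Dntt and Arpp21, summed to 15.6 to 24.0 and then 28.5, 25.6 and 24.4 CPM. These sums were barely apart, at 24.03 CPM in control unit 2 and 24.39 CPM in knockout-labelled unit 3. Of the 5 tested, 0 passed in edgeR, and DESeq2 called 1 higher. The log2 fold change was positive for 3 and negative for 2 (Rag2 and Ptcra). Cd8b1 is also in the CD8 and NK list. Leaving out control unit 2 and knockout-labelled unit 3 together, a choice made after seeing the data, kept the count of called receptors at 3.

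**Figure D5:**
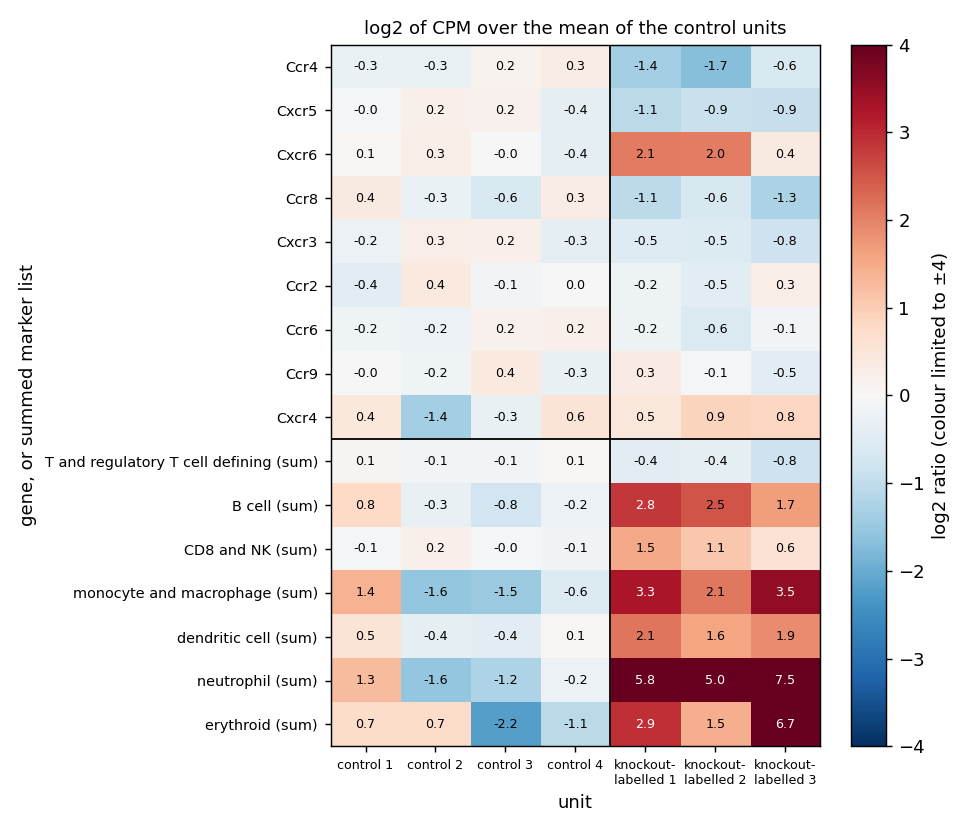
Log2 ratio of each unit's CPM to the mean of the control units, for the 9 receptors (upper rows) and the summed CPM of 7 marker lists (lower rows); columns are the 7 units, and colours stop at 4 in either direction. Cxcr6, the CD8 and NK list and the B cell list are all highest in knockout-labelled units 1 and 2. Ccr4, Cxcr5, Ccr8 and Cxcr3 lie below the control mean in all 3 knockout-labelled units.

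Genes with low GC content were lower and those with high GC content higher in the knockout-labelled units: the median log2 fold change was -0.53 over 952 genes under 40% GC and 0.37 over 3359 genes at 55% or more. The receptors lie between 39.4% (Ccr2) and 54.3% (Cxcr3). Of the called receptors, Cxcr6 is at 43.1%, and genes of 40% to 45% had a median of -0.29. Ccr4 is at 46.7%, in the class of 45% to 50% with a median of -0.04, and Cxcr5 at 52.6%, in the class of 50% to 55% with a median of 0.19. With the offset for GC content and length, the log2 fold change was 2.05 for Cxcr6 and -1.09 for Cxcr5 (edgeR adjusted p = 0.0146 and 0.00386), and Ccr4 missed the threshold as given above. The part of base composition in each value was not tested beyond that offset.

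The protein-coding genes whose log2 CPM followed each receptor most closely over the 7 units, among 8859 with a mean of at least 10 CPM, are given as a description; the 7 points share their libraries, depth and base composition. For Ccr4 they were Socs2 (r = 0.986), Galm (0.965) and Dynll2 (0.955), and for Ccr8 Sec24a (0.990), Zfp326 (0.987) and Agfg1 (0.985). Socs2, an inhibitor of cytokine signals, was at 53.0, 53.9, 60.7 and 72.2 CPM among the controls and 26.6, 26.8 and 41.8 CPM in the knockout-labelled units. For Cxcr5 they were Gosr1 (0.985), Oxsm (0.983) and Lpar6 (0.979), and for Cxcr3 they included Rab37 (0.987) and Mlh3 (0.984). Cxcr6 was followed by Ccl5 (0.956), Fam129c (0.949) and Tec (0.945). Ccl5, a chemokine of cytotoxic lymphocytes, was at 8.49, 5.23, 4.40 and 4.04 CPM among the controls and 26.2, 19.3 and 7.21 CPM in the knockout-labelled units. As with Cxcr6, its value in knockout-labelled unit 3 was the lowest of that group, and here it fell within the control range. The nearest genes were Fam222b (0.990), Zscan20 (0.983) and Chd7 (0.975) for Cxcr4 and Wdr61 (0.987), Gm10131 (0.982) and Srp54a (0.976) for Ccr2. They were Oaz2 (0.976), Piga (0.936) and Casp6 (0.925) for Ccr6 and Slc31a2 (0.912), H2-T24 (0.887) and Fam214a (0.865) for Ccr9.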

How the data were processed

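The 14 deposited tables give, per the file headers, estimated counts and TPM for each of 88198 transcripts, with transcript lengths and effective lengths as other columns. The expected counts in the deposited tables are not normalized, and TPM by the authors are scaled for effective length. Kallisto and the build GRCm38 are named in the submitters' processing notes; their versions are not given in the sources used here. No strand was kept by the library kit, per the labels' protocols.

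Genes were assigned from transcript identifiers in the GENCODE annotation for GRCm38; 2079 had no gene and held 1.17% to 1.28% of the reads of a sample. Estimated counts were summed per gene and over the 2 samples with the same first number in the title (a unit), then rounded. The labels do not say which animals stand behind a number; p-values therefore reflect only how these units vary, which may be partly technical. The 2 samples of a unit gave receptor levels in a ratio between 0.72 and 1.16.

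Genes were tested with edgeR 4.0.16 (R 4.3.3): TMM, filterByExpr, a robust quasi-likelihood fit on group alone, and Benjamini-Hochberg adjustment over all genes at 0.05. Adjusted p values named as edgeR's, limma's (3.58.1; log2(TPM + 1), mean TPM of at least 1) or DESeq2's (1.42.0) come from fits over all genes or transcripts. Likeness used log2(CPM + 0.5). On simulated counts for this comparison (15415 genes) edgeR called 31% of 100 genes changed 2-fold and 67% of 100 changed 4-fold, and 9.3% of its 108 calls were false. On 33274 simulated transcripts limma called 42% of 200 that were shifted by 2 on the log2 scale, with 2.3% of the calls false. All simulated transcripts were set well above their real levels, so that share does not hold for receptor transcripts at their real levels.

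The receptors and all gene lists were chosen with earlier results of these data known. Named genes are the 9 receptors, Tln1, up to 4 called genes per pathway list with the smallest adjusted p, up to 3 genes per cell type list with the highest CPM (not all are described) and the 3 genes most like each receptor; 3 genes of these lists are not reported here; others serve to give a ligand, neighbour or marker its value. Promoters come from RefSeq (GRCm38.p6); 8 of the 9 receptors had an entry. Alternatives changed the scaling, count filter, test, offsets, samples left out and replicate block.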

Additional observations from a re-analysis of the deposited data

Results flagged for a closer look

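In 32 sets of 4 control units (levels of receptors and sums of marker lists), 2 had a unit farther from the others than Dixon's 95% limit of 0.829 allows; chance flags about 1 in 20 such sets. Cxcr6 in control unit 4 was the lowest of its group at 2.79 TPM, with the other control units between 4.06 and 4.32 TPM, and the Cxcr6 rise lost its call without that unit (edgeR adjusted p = 0.0716). The same check on Cxcr6 CPM flagged no unit, and edgeR used counts rather than TPM. The call was also lost without control unit 2, control unit 3 or knockout-labelled unit 2, so its loss was not particular to control unit 4. The summed CPM of the monocyte and macrophage markers was highest in control unit 1, at 175 CPM, with the others between 22.7 and 45.4 CPM; Ccr2 was lowest there, at 41.4 CPM. The part of either unit in the receptor values was not tested beyond the fits that left out 1 unit.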

How the results depend on the processing

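Over 21 alternatives for each of the 9 receptors, 164 of 189 values kept their direction and side of the threshold, 12 kept the direction and lost the call, 4 gained one and 9 turned. Cxcr5 kept its call in all of them. The 9 that turned were log2 fold changes of Ccr2 (0.55 with the GC and length offset, 0.059 without control unit 2, 0.05 without knockout-labelled unit 2, 0.51 with replicate block and offset) and Ccr9 (0.34 with the GC and length offset, 0.13 without control unit 3, 0.15 without knockout-labelled unit 3, 0.24 with replicate block and offset, 0.046 without control unit 2 and knockout-labelled unit 3); the cause was not tested. With 1 unit left out, Ccr2 lay between -0.32 and 0.059 and Ccr9 between -0.26 and 0.15. The DESeq2 Wald test called 3542 genes and 5 receptors, against 2144 and 3. Leaving out 1 unit at a time gave 758 to 1905 genes, 1 to 3 receptors and 0 to 1 receptor transcripts; the count moved most without control unit 2 (1122), control unit 4 (758), knockout-labelled unit 2 (1131) or knockout-labelled unit 3 (977). Leaving out control unit 2 and knockout-labelled unit 3 together, chosen after seeing the data, gave 941 genes. Deviations of units with the same number had r of 0.03, -0.17 and -0.04, within the range of -0.25 to 0.25 for units with different numbers. With so few units this cannot decide whether the numbers pair the units, and the labels do not say. A replicate block gave 612 genes and 2 receptors, and 330 and 2 with the GC and length offset, with Cxcr6 not called (edgeR adjusted p = 0.0871 and 0.0794). Ccr8 had the fewest reads (122 to 198 per unit), while Cxcr4 had the largest standard error (0.44).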
